A study of Mus musculus with 30 samples.

Results

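The mitochondrial ribosomal protein genes were followed through the in vitro differentiation of mouse embryonic stem cells into neuromesodermal progenitors (NMPs), the bipotent cells of the tailbud that feed both the spinal cord and the somites. Members were chosen by symbol: rows of the count table named Mrpl or Mrps followed by a number, with a mean of at least 5 CPM (counts of a gene scaled to a common library total) over the 30 libraries. Of 54134 rows, 78 had such a symbol and 75 were members, 48 of them Mrpl and 27 Mrps. The 3 left out were Mrps34 at a mean of 1.69 CPM, Mrps18b at 1.36 CPM and Mrpl53 at 0.0145 CPM, and the members nearest to the limit were Mrps36 at 14.4 CPM and Mrpl24 at 16.9 CPM, so that no member lay close to it. All 75 members passed the filter on low counts and were tested. Mrp genes are nuclear, and the 75 lie on 17 chromosomes.

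RNA was measured in 30 libraries of Bruce4 cells, a mouse embryonic stem cell line, in 10 groups with 3 replicates each. Wildtype cells and Nr6a1-/- cells were collected at d2, after 48 h in FGF2. They were collected again at d2.5 and d3, after 12 h and 24 h with CHIR99021, a GSK3 inhibitor that activates Wnt signalling. The last groups, d4 and d4G, followed a further 24 h in FGF2 and CHIR99021, with recombinant Gdf11 added over the same 24 h in d4G only. All Nr6a1-/- libraries came from 1 clone, made by CRISPR/Cas9, that carries a different deletion within an exon of each Nr6a1 allele, so clone and genotype cannot be told apart. All cells had been kept on feeder fibroblasts and were depleted of them before differentiation. Gdf11, a TGF-beta family ligand, is known to bring trunk formation to an end in the embryo, and Nr6a1, an orphan nuclear receptor, is expressed in trunk progenitors. The comparisons ask how the members changed from stage to stage, with Gdf11 and without Nr6a1.

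The mitochondrial ribosome translates the few messenger RNAs of the mitochondrial genome, which encode core subunits of the respiratory chain and of ATP synthase. Its ribosomal RNAs are made in the organelle, whereas all of its proteins are encoded in the nucleus, made in the cytosol and imported. A large subunit, to which most Mrpl proteins belong, forms the peptide bonds, and a small subunit, built mainly from Mrps proteins, reads the messenger RNA. The names do not follow the subunits throughout: Mrps30 and Mrps18a sit in the large subunit, and Mrps36 is now known as a component of the oxoglutarate dehydrogenase complex. Loss of members such as Mrps22 or Mrpl12 impairs oxidative phosphorylation in human disease.

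Promoter sequence was looked at first, because factors such as NRF1, the ETS protein GABP and YY1 are known to bind near the starts of many nuclear mitochondrial genes. RefSeq windows of GRCm38.p6, from 250 bases before to 50 bases after the annotated start, were held for 67 of the 75 members. Each was searched on both strands for 5 motifs spelled in full. The NRF1 motif GCGCATGC was found in 7 of 67 members (10.4%) and in 2.8% of 27025 promoters. The ETS motif CCGGAAGT was found in 11 members (16.4%) and in 4% of promoters, and the YY1 motif AAGATGGC in 12 members (17.9%) and in 2.88% of promoters. The E-box CACGTG, to which Myc proteins bind, was in 5 members (7.46%) against 7.24% of promoters. The sequence TCAAGGTCA, which NR6A1 is known to bind as a single or repeated element, was in 0 members and in 0.407% of promoters. Overlapping matches of a motif were counted separately, and a match is a description of the letters and not evidence of binding.

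At least 1 of the first 3 motifs was in 27 members, and 3 members (Mrpl33, Mrpl32 and Mrps27) held 2 of these 3. In 8 of the 12 members with the YY1 motif it lay after the start. The stretches below run from 120 bases before the start to 25 bases after it in the direction of the gene, with matched motifs in capitals. They are shown for the 3 members with 2 kinds of motif and for Mrps22 and Mrpl20, which return among the results. Mrpl33 (chr5:31613831-31613975, plus strand) holds an NRF1 motif just before the start and an ETS motif that spans it, and Mrpl32 (chr13:14613013-14613157, minus strand) holds 4 matches to the NRF1 motif, 2 of them overlapping; its YY1 motif lies upstream of the stretch. Mrps27 (chr13:99344666-99344810, plus strand) holds an ETS motif and a YY1 motif, Mrps22 (chr9:98601655-98601799, minus strand) an ETS motif, and Mrpl20 (chr4:155802758-155802902, plus strand) an E-box.
Mrpl33: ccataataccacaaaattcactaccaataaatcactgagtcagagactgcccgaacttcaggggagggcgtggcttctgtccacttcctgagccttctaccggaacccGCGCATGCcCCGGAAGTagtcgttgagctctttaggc
Mrpl32: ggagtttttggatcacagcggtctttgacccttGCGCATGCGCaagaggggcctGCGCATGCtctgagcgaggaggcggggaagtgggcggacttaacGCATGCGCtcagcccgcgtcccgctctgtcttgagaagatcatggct
Mrps27: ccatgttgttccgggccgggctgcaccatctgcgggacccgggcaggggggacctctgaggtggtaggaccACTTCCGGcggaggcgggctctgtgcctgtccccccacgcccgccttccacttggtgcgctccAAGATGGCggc
Mrps22: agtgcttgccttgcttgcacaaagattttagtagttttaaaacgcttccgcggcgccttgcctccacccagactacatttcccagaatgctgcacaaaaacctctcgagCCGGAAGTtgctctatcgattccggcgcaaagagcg
Mrpl20: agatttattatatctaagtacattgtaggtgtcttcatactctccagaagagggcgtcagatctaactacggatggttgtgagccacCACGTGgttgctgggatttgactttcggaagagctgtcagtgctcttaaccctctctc

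Libraries held between 1570714 and 3688197 counts. The Nr6a1 transcript does not check the labels, since the deletions lie in an internal exon and counts come from 3′ ends: it was counted at 82.9 to 86.5 CPM in the 3 wildtype libraries and 87.4 to 99.8 CPM in the 3 Nr6a1-/- libraries at d2, at 88.8 to 102 and 109 to 114 CPM at d2.5, at 166 to 185 and 254 to 312 CPM at d3, at 96.0 to 98.7 and 188 to 253 CPM at d4, and at 17.1 to 18.9 and 18.6 to 37.5 CPM at d4G. NMP markers (8 of 8 counted, among them T, Cdx2 and Nkx1-2) summed to 127 to 160 CPM at d2 and 1051 to 1641 CPM at d3. Library 2 of wildtype d4 stood apart, with 8 epiblast markers at 741 CPM in sum against 92.4 and 103 CPM in the other 2. The 3 Nr6a1-/- d4 libraries differed from each other in their 78 cytosolic ribosomal protein genes, which summed to 183423, 130010 and 121345 CPM, where wildtype d4 spanned 159994 to 167070 CPM. Genes of chromosome 8 took 4.88% to 5.52% of counts in wildtype and 3.77% to 4.32% in Nr6a1-/- libraries. Endoderm markers (5 of 8 tested; Cer1 was at 0 in every library) summed to 16.1 to 82.2 CPM in wildtype and 1.9 to 9.8 CPM in Nr6a1-/- libraries, and 10 fibroblast markers to 35.9 to 101.1 CPM and 61.7 to 126 CPM. Mesoderm markers (7, among them Tbx6 and Dll1, with Msgn1 not tested) summed to 321 to 391 CPM in wildtype and 778 to 806 CPM in Nr6a1-/- libraries at d4, and to 202 to 227 and 332 to 374 CPM at d4G. Values per gene in libraries and groups, here and below, are CPM after scaling by TMM factors. The part of these differences in the results was not tested. Nothing in the labels says that replicates were separate cultures, so p-values measure the spread between these libraries, which may be technical. Per the labels, each d4 library carries the same index sequence as a d4G or d3 library, while the other libraries share none. Indexes were added at poly(A) priming, before pooling, so libraries with the same index cannot have shared a pool. Pools are not named in the labels, so whether the d4 libraries shared a pool, within or between genotypes, is not known. In comparisons of d4 with d3 or d4G, a difference between pools cannot be told apart from stage or Gdf11.

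Levels of the members and their variation between groups are given here, and neither was compared with that of all genes. In a 3′-end library a transcript is counted near its end whatever its length, so CPM were compared between genes without dividing by length. Before TMM scaling, the highest means over 30 libraries were 486.9 CPM for Mrpl15, a core protein of the large subunit, 328.2 CPM for Mrpl20, 310.5 CPM for Mrpl42 and 289.9 CPM for Mrpl52. The lowest were Mrps36, Mrpl24, Mrpl23 at 22.2 CPM and Mrpl10 at 24.96 CPM, and the median member was at 112.6 CPM. Across the 10 group means, the highest over the lowest was 1.48 for the median member. Only 4 members passed 2 on this measure: Mrpl51 at 2.21, Mrpl1 at 2.13, Mrpl47 at 2.04 and Mrpl15 at 2.01. Mrps18c was the steadiest at 1.22, from 262 CPM in wildtype d2 to 319 CPM in Nr6a1-/- d4. The median coefficient of variation between replicates was 6.5%, and 34 of the 75 members passed 1.5 on the ratio of group means.

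Exons of 6 members overlap those of another gene on the same strand, and exons of 25 overlap a gene on the opposite strand. Whether strand was used in counting is not given in the sources used here, so the levels of these members may hold reads of the neighbour. Among the members described below with their levels, Mrpl33 (Gm43809), Mrps6 (Gm49711 and Slc5a3) and Mrps18c (Gm43511) overlap a gene on their own strand. Mrpl47 (Actl6a and Ndufb5), Mrps30 (B430218F22Rik), Mrps27 (6430562O15Rik), Mrpl12 (Gm16755), Mrpl21 (Ighmbp2), Mrpl27 (Eme1) and Mrpl24 (Rrnad1) overlap one on the opposite strand.

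**Figure D1:**
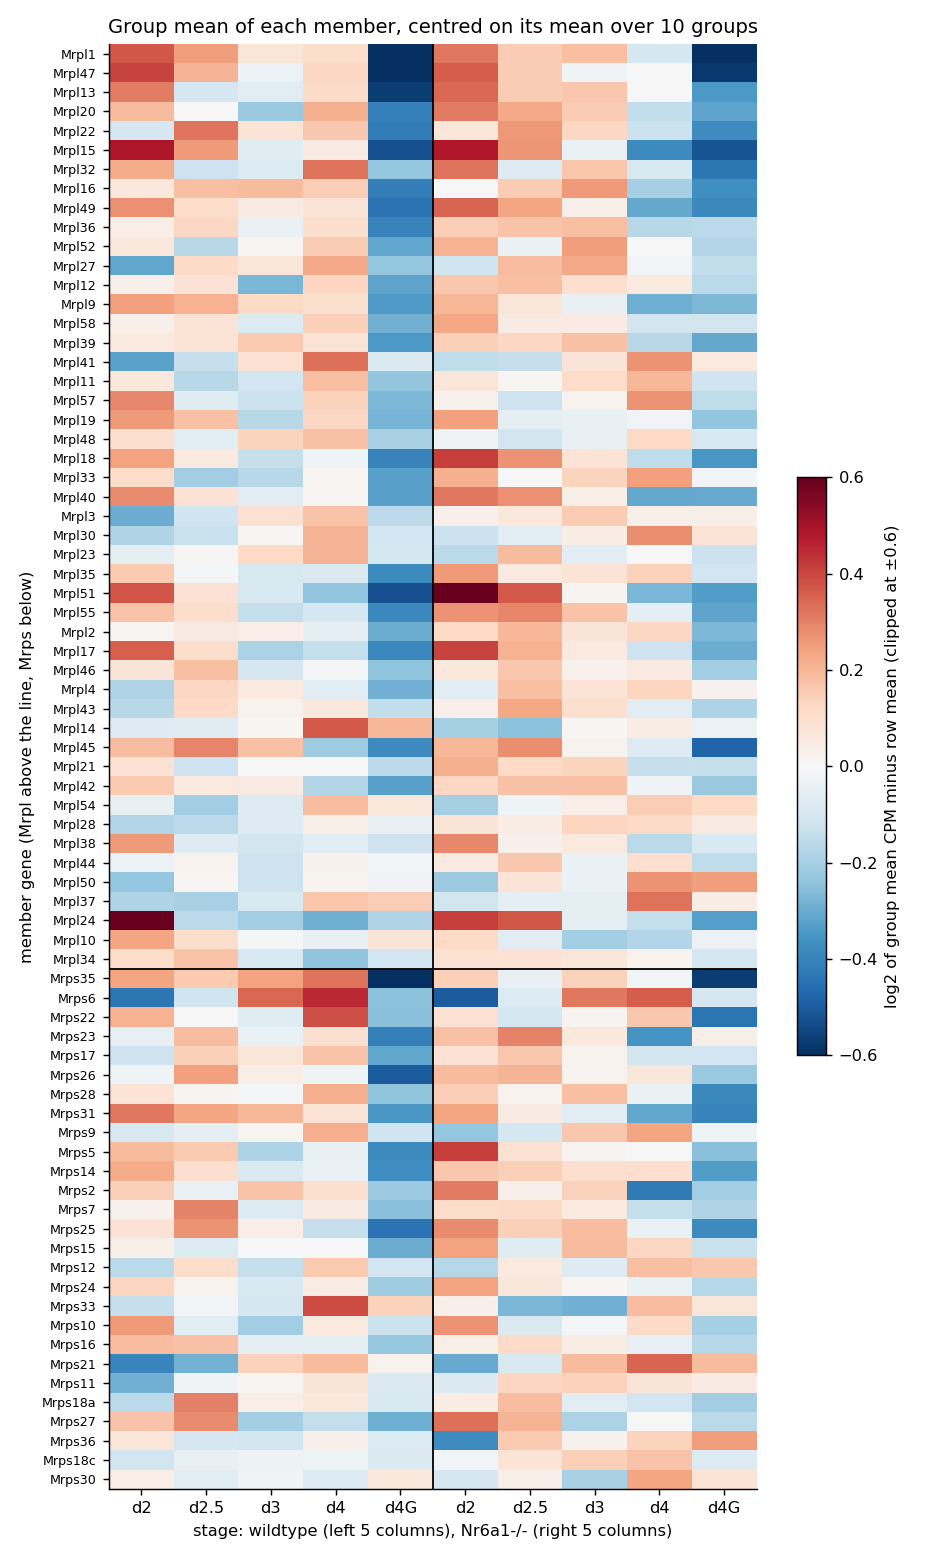
Level of each of the 75 members (rows, Mrpl above the line and Mrps below it) in the 10 groups (columns, wildtype left and Nr6a1-/- right). Colour is the log2 of the group mean of 3 libraries minus the row's mean over groups. The d4G columns are the bluest in both genotypes: d4G held the lowest of the 5 stage means for 51 of 75 members in wildtype and for 47 of 75 in Nr6a1-/- cells.

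Summed over the 75 members, about 1 count in 100 came from these genes. Before TMM scaling, the 3 wildtype libraries summed to 10272 to 10695 CPM at d2, 10416 to 10773 CPM at d2.5, 9830 to 10042 CPM at d3, 10269 to 10406 CPM at d4 and 8664 to 8991 CPM at d4G. The Nr6a1-/- libraries summed to 10914 to 11445 CPM at d2, 10945 to 11307 CPM at d2.5, 10250 to 11228 CPM at d3, 9316 to 10090 CPM at d4 and 8775 to 9207 CPM at d4G. The d4G groups were lowest in either genotype and overlapped each other, while neither overlapped any other group. Nr6a1-/- libraries lay above wildtype libraries without overlap at d2, d2.5 and d3 and below them without overlap at d4. After TMM scaling this held at d2 and d2.5 but not at d3 or d4, where the genotypes overlapped, while at d4G the 3 wildtype libraries (8313 to 8642 CPM) then lay below the Nr6a1-/- ones (8816 to 9078 CPM). Before TMM scaling the group means ran, from the lowest, through d4G wildtype, d4G Nr6a1-/-, d4 Nr6a1-/-, d3 wildtype, d4 wildtype, d2 wildtype, d2.5 wildtype, d3 Nr6a1-/-, d2.5 Nr6a1-/- and d2 Nr6a1-/-. Neighbours in this order overlapped in their libraries, apart from d4G and d4 of Nr6a1-/- cells and apart from d3 and d4 of wildtype cells. The order changed with TMM scaling: it then ran through d4G wildtype, d4G Nr6a1-/-, d3 wildtype, d4 Nr6a1-/-, d2.5 wildtype, d4 wildtype, d3 Nr6a1-/-, d2 wildtype, d2.5 Nr6a1-/- and d2 Nr6a1-/-, with the d4G groups lowest on either scale. In bulk RNA, fewer cells of a type and less of an mRNA per cell cannot be told apart.

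**Figure D2:**
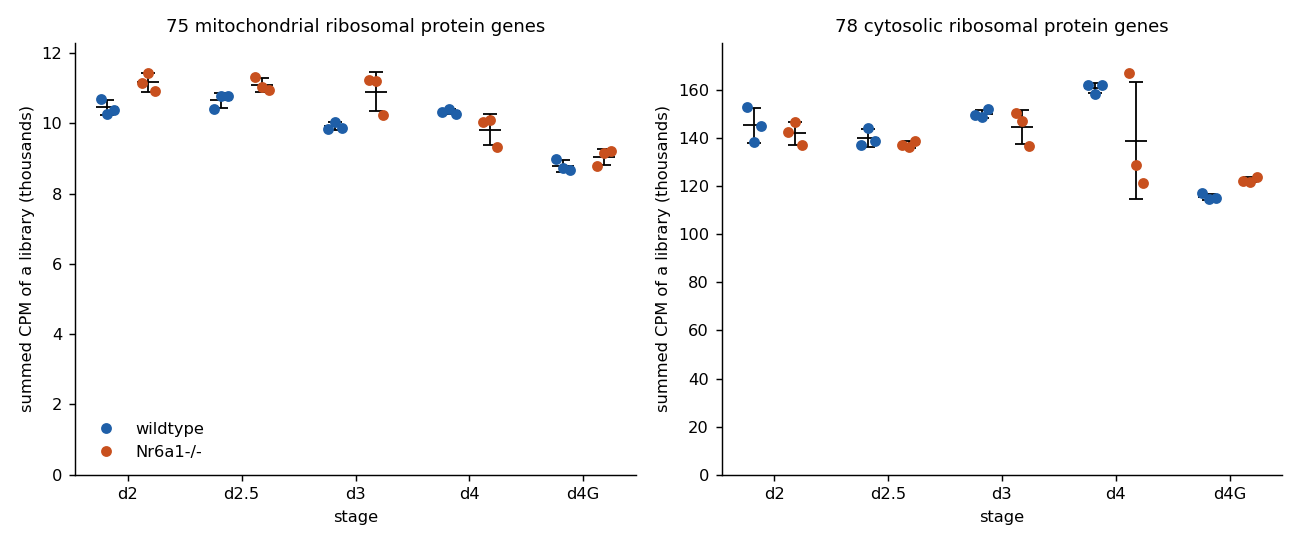
Summed level per library of the 75 members (left) and of 78 cytosolic ribosomal protein genes (right), in CPM before TMM scaling, with the axis scaled down by 1000, against stage. Points are libraries, and black bars are the mean and SD of 3. The members fell to between 8664 and 9207 CPM in the 6 d4G libraries, below every other library, and the 3 Nr6a1-/- d4 libraries were spread widely in the right panel.

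The clearest change in the members was lower expression at d4G, the groups given Gdf11. Wildtype d4 and d4G replicates of the same number carry the same index, so pool and Gdf11 cannot be told apart between them. In wildtype cells, d4G against d4, 46 of 75 members were lower and 0 higher by edgeR's quasi-likelihood test at an adjusted p (false discovery rate, FDR) under 0.05. Among all 12149 genes tested, 14.5% were lower and 14.3% higher. The median log2 fold change was -0.32 over the members and 0.02 over all genes. With no scaling factors the median of all genes moved to 0.11 and that of the members to -0.23, with 32 members lower and 2 higher. By name, 30 of 48 Mrpl members and 16 of 27 Mrps members were lower, with medians of -0.33 and -0.31. Of the 75 values, 71 were negative, and the 4 positive ones (Mrps30 at 0.15, Mrpl34 at 0.13, Mrpl10 at 0.13 and Mrpl24 at 0.10) were not called.

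Mrps35, a mitochondria-specific protein of the small subunit, showed the largest fall. It was at 134, 120 and 139 CPM in the 3 wildtype d4 libraries and at 72.5, 65.3 and 66.1 CPM in the d4G libraries. The groups were far apart, and the log2 fold change was -0.94 ± 0.11 (SE, n = 3 per group, edgeR adjusted p = 3.28e-08). Mrpl1, a protein of the stalk where deacylated tRNA leaves the ribosome, went from 109, 117 and 111 CPM to 68.4, 70.5 and 61.1 CPM, a log2 fold change of -0.76 ± 0.11 (edgeR adjusted p = 2.18e-06). Mrpl47, which lies near the exit of the peptide tunnel, went from 127, 131 and 103 CPM to 65.6, 71.8 and 77.4 CPM (log2 fold change -0.74 ± 0.12, edgeR adjusted p = 9.66e-06). In none of these 3 members did a d4G library reach a d4 library. Further falls past 0.6 on the log2 scale were those of Mrps6, Mrpl13, Mrps22 and Mrpl20. Levels at d4 and d4G were 489 ± 14.1 and 329 ± 6.34 CPM (SD, n = 3) for the most abundant member, Mrpl15.

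In Nr6a1-/- cells, d4G against d4, 20 members were lower and 1 higher, where 9.59% of all genes were lower and 8.45% higher. The median was -0.17 over the members and -0.02 over all genes, and 66 of 75 values were negative. By name, 9 of 48 Mrpl and 11 of 27 Mrps members were lower. Mrpl1 was at 112, 97.6 and 81.6 CPM at d4 and at 56.3, 72.1 and 61.7 CPM at d4G, without overlap (log2 fold change -0.62 ± 0.12, edgeR adjusted p = 0.00015). Mrps22, a small-subunit protein found in mitochondria and not in bacteria, was at 123, 75.9 and 85.9 CPM and then at 63.5, 50.6 and 73.2 CPM (log2 fold change -0.59 ± 0.15, edgeR adjusted p = 0.00386). The d4 libraries of Mrps22 were spread more than its d4G libraries, and without replicate 1 of Nr6a1-/- d4 the call was lost. Mrpl47 had a log2 fold change of -0.59 ± 0.13. The count of called members moved with single libraries. It was 29 lower without replicate 3 of Nr6a1-/- d4, 9 lower and 1 higher without replicate 1, 10 lower without replicate 1 of d4G, and 11 lower and 1 higher without replicate 3 of d4G. With only the 6 libraries compared, 7 were lower.

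The member that rose was Mrps23, a mitochondria-specific protein of the small subunit. In Nr6a1-/- cells it was at 57.6, 55.8 and 36.8 CPM at d4 and at 67.3, 63.9 and 65.2 CPM at d4G, a log2 fold change of 0.39 ± 0.12 (edgeR adjusted p = 0.0161). In wildtype cells it went the other way, from 67.9, 66.9 and 70.0 CPM to 48.0, 50.4 and 46.0 CPM, a log2 fold change of -0.50 ± 0.11 (edgeR adjusted p = 0.00073). Neither genotype's groups overlapped. Replicate 3 of Nr6a1-/- d4 was the lowest of all 30 libraries for this gene, and the rise was not called without it, nor without replicate 1 of d4G.

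Of the 46 members lower in wildtype and the 20 lower in Nr6a1-/- cells, 16 were in both lists, which is 34.8% of the first and 80% of the second. These comparisons share no library. The 16 were Mrpl1, Mrpl11, Mrpl13, Mrpl33, Mrpl35, Mrpl47, Mrpl57, Mrps6, Mrps9, Mrps14, Mrps15, Mrps22, Mrps25, Mrps26, Mrps28 and Mrps35. The difference between genotypes in the Gdf11 response was tested as an interaction. It was called for 4 members, all less reduced or raised in Nr6a1-/- cells: Mrps23 at a log2 difference of 0.90 ± 0.16 (edgeR adjusted p = 0.000609), Mrpl36 at 0.52 ± 0.14, Mrps17 at 0.48 ± 0.13 and Mrpl15 at 0.44 ± 0.12. Over all genes 1.17% were called upwards and 1.49% downwards in that test. The calls of Mrpl36, Mrps17 and Mrpl15 were lost under 11, 13 and 13 of 19 alternatives. Of the 4, only Mrps23 was called under each of 19 alternatives that kept d4 as the reference. The count was 10 without replicate 1 of Nr6a1-/- d4 and 1 or 2 without any other d4 or d4G library. With d3 as the reference edgeR called 0 members, with 6 at an unadjusted p under 0.05.

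Since d4 is shared by the steps before and after it, d4G was also set against d3, a comparison added after the data had been seen. In wildtype cells 32 members were lower and 0 higher, against 18.5% and 17.6% of all genes. In Nr6a1-/- cells 32 were lower and 3 higher, against 19% and 18.8%. The median was -0.19 in wildtype and -0.23 in Nr6a1-/- cells. Mrps35 fell by 0.87 in wildtype and by 0.70 in Nr6a1-/- cells on the log2 scale, and Mrpl1 by 0.72 and 0.90. Of the 32 lower members in each genotype 24 were the same, 75% of each list, where 42.7% of all members were in each. The lists named here share their d4G libraries with the comparison against d4.

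**Figure D3:**
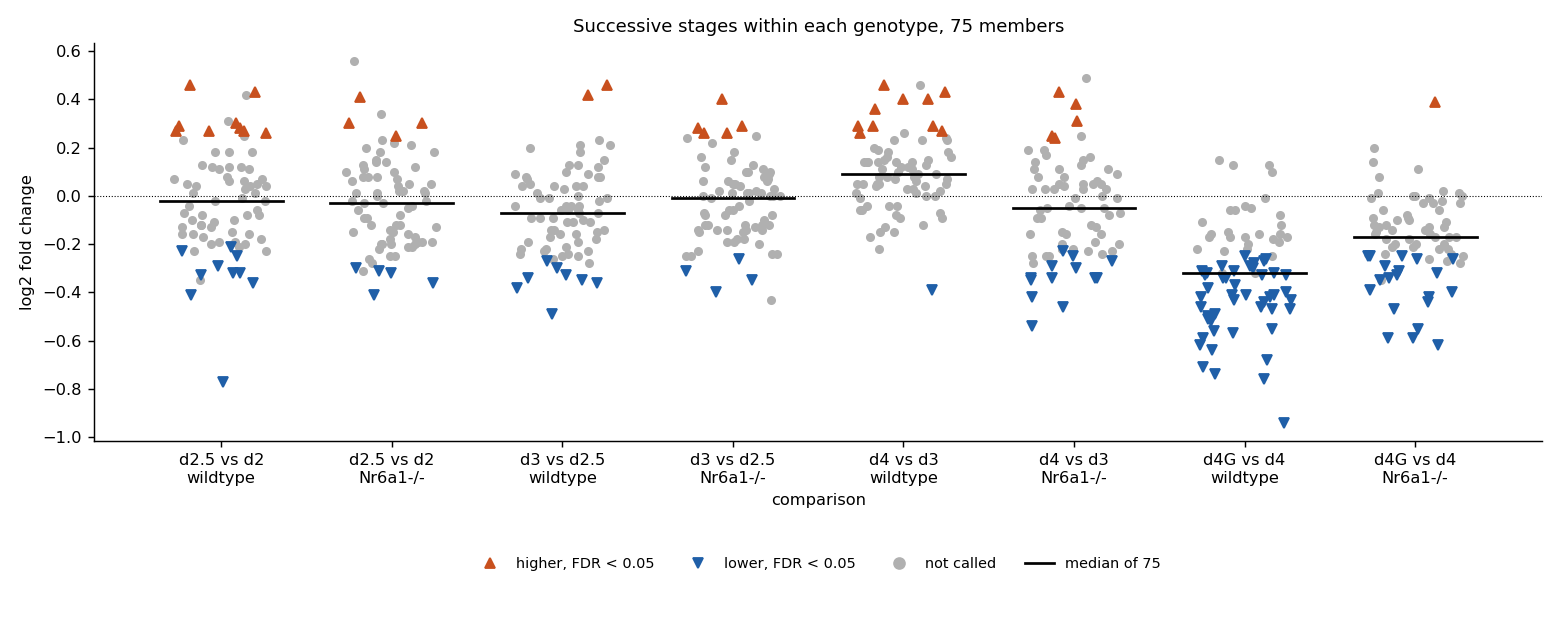
Log2 fold change of each of the 75 members (points) between successive stages in wildtype and Nr6a1-/- cells, with the median as a bar. Orange and blue triangles are members called higher or lower at FDR under 0.05. The wildtype d4G vs d4 column holds 46 blue triangles and 0 orange ones, and its median is at -0.32.

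Genes with neighbouring functions gave a mixed picture in wildtype d4G against d4. Of 78 cytosolic ribosomal protein genes, 75 were lower and 0 higher, with a median of -0.60. Of 78 nuclear genes of oxidative phosphorylation, 46 were lower and 3 higher, with a median of -0.24. The same lists had, without Nr6a1, 39 lower and 0 higher, and 26 lower and 1 higher. Another list held 6 genes of the mitochondrial ribosome or its partners, such as Oxa1l, without an Mrp name. Of these 6, 2 were lower in wildtype: Chchd1 went from 503 ± 19.8 to 329 ± 12.7 CPM (SD, n = 3), and Aurkaip1 from 128 ± 10.4 to 101.1 ± 6.1 CPM. Dap3, a GTP-binding protein of the small subunit, did not pass the test, at 82.1 ± 4.37 and 86.2 ± 8.90 CPM.

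Of 27 assembly factors 4 were lower and 2 higher in wildtype, among them the RNA-binding protein Grsf1, at -0.57 ± 0.12 on the log2 scale in wildtype and -1.18 ± 0.11 in Nr6a1-/- cells. None of 13 translation factors was called by edgeR, with 2 at an unadjusted p under 0.05. Tufm, the mitochondrial elongation factor, was at 46.5 ± 4.34 and 43.2 ± 2.48 CPM. Of 20 mitochondrial tRNA synthetase genes 2 were lower (Iars2 at -0.90 and Rars2 at -0.54). Of 16 genes of mitochondrial DNA expression 6 were lower and 1 higher. Tfam, which packages mitochondrial DNA and starts its transcription, went from 122 ± 9.56 to 91.8 ± 5.46 CPM (log2 fold change -0.42 ± 0.10, edgeR adjusted p = 0.00212). Polrmt, the mitochondrial RNA polymerase, was at 17.6 ± 2.15 and 19.6 ± 4.74 CPM and was not called.

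Myc and Mycn, from a list of 12 regulators, were lower in wildtype. The 12 together summed to a mean of 418.9 CPM at wildtype d4 and 414.9 CPM at d4G, so the list did not fall as a whole. Myc went from 26.4 ± 4.32 CPM at wildtype d4 to 13.1 ± 2.48 CPM at d4G (edgeR adjusted p = 0.000466), and Mycn from 94.3 ± 18.3 to 58.3 ± 8.25 CPM (log2 fold change -0.70 ± 0.13). Without Nr6a1, Mycn went from 178 ± 9.36 to 79.5 ± 9.35 CPM (log2 fold change -1.17 ± 0.12), whereas Myc was at 14.4 ± 2.05 and 17.5 ± 2.88 CPM and was not called. Of the members with a motif in the promoter window, 6 of 7 with NRF1, 8 of 11 with ETS, 7 of 12 with YY1 and 2 of 5 with an E-box were lower in wildtype, where 46 of all 75 were. The counts without Nr6a1 were 1 of 7, 4 of 11, 1 of 12 and 2 of 5, where 20 of all 75 were lower. Both counts out of 75 include the 8 members without a promoter window. Epiblast markers had a median of -2.16 in wildtype d4G against d4 (5 of 8 lower), with library 2 of d4 holding most of their counts. Without that library 39 members were lower and 0 higher.

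**Figure D4:**
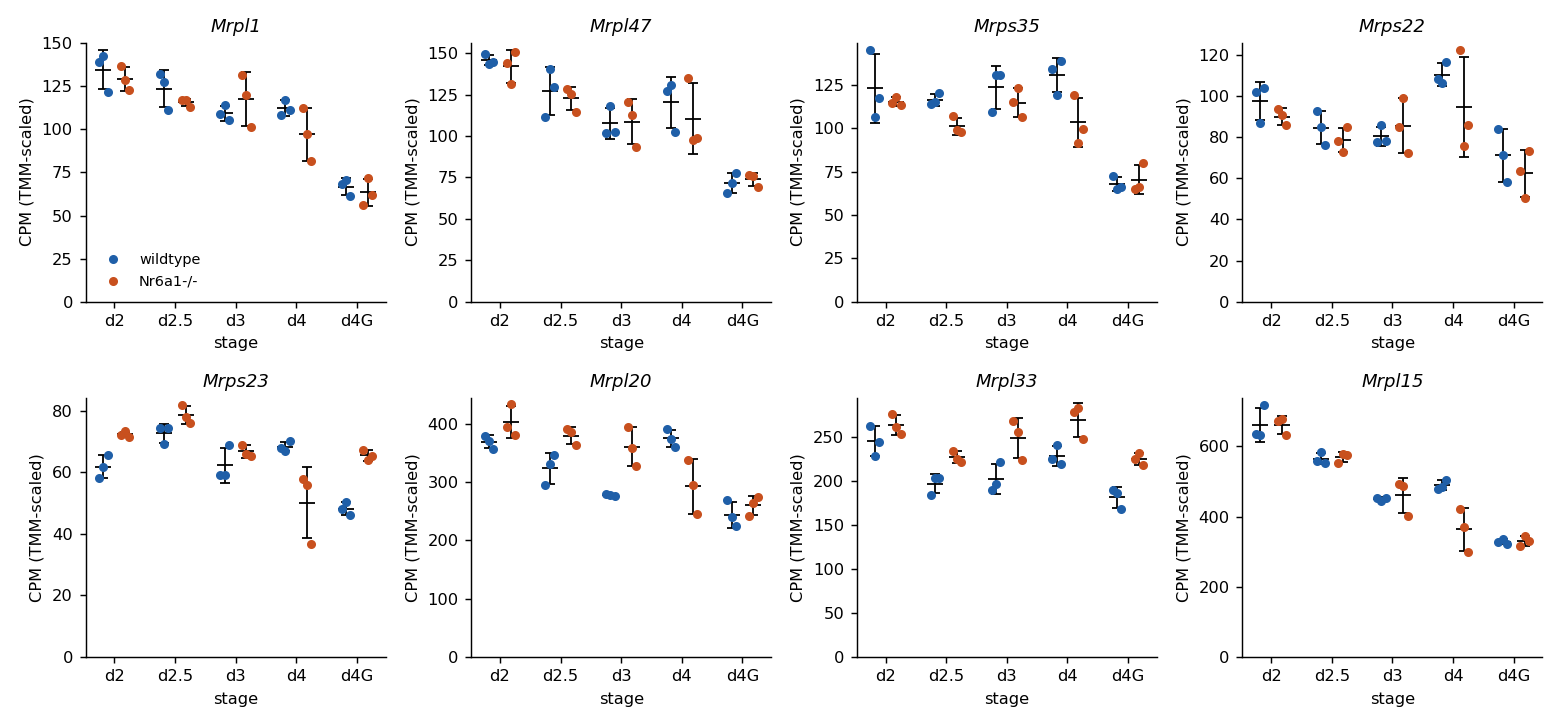
CPM (TMM-scaled) of 8 members in every library by stage, wildtype in blue and Nr6a1-/- in orange, with the mean and SD of 3 libraries in black. In the upper row Mrpl1, Mrpl47, Mrps35 and Mrps22 reach their lowest group means at d4G, at 62.4 to 73.9 CPM in the Nr6a1-/- groups. In the lower row the single libraries of Mrps23, Mrpl20 and Mrpl15 are spread widely in Nr6a1-/- d4.

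From d2 to d2.5, the step at which CHIR99021 was first given, members moved both ways. In wildtype cells 9 were higher and 10 lower, where 13.3% of all genes were higher and 12.1% lower. Among the lower 10, 9 were Mrpl, and among the higher 9, 6 were Mrps, where 48 of the 75 members are Mrpl and 27 Mrps. Mrpl24, one of the rarest members, was at 24.9 ± 4.41 CPM at d2 and 14.8 ± 3.01 CPM at d2.5 (SD, n = 3; log2 fold change -0.77 ± 0.22, edgeR adjusted p = 0.00793). The next largest falls were in Mrpl13, at -0.41, and Mrpl57, at -0.36. The largest rises were in Mrps18a, which despite its name sits in the large subunit and went from 105 ± 11.0 to 145 ± 17.0 CPM (log2 fold change 0.46 ± 0.11, edgeR adjusted p = 0.00164), in Mrpl27, a protein near the peptidyl transferase centre, at 0.43, and in Mrpl4, at 0.30. The balance depended on scaling: 4 were higher and 10 lower with DESeq2's size factors in place of TMM factors, and 12 higher and 4 lower with no factors. Leaving out any of the 6 libraries gave between 7 and 12 called members.

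The same step in Nr6a1-/- cells gave 4 members higher and 5 lower, with 12.9% and 11.2% of all genes. The lower members with the largest changes were Mrpl32 at -0.41, Mrps10 at -0.36 and Mrps5 at -0.32, and the higher ones Mrps6 at 0.41, Mrpl27 at 0.30 and Mrpl50 at 0.30, whose calls were lost under 7, 7 and 8 of 13 alternatives. The split was 2 higher and 9 lower with DESeq2's size factors and 9 higher and 5 lower with no factors. It was 0 and 2 without replicate 3 of d2.5, 1 and 4 without replicate 1 of d2, and 3 and 2 without replicate 2 of d2. Mrpl27 and Mrpl4 were higher and Mrps10 lower in both genotypes. Mrpl27 was at 85.7 ± 2.62 and 115 ± 6.0 CPM in wildtype and at 97.8 ± 8.89 and 121 ± 11.1 CPM in Nr6a1-/- cells.

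From d2.5 to d3, 2 members were higher and 8 lower in wildtype, with 5.91% and 5.56% of all genes, and 5 were higher and 4 lower in Nr6a1-/- cells, with 7.43% and 8.45%. In Nr6a1-/- cells the split was 3 higher and 4 lower with DESeq2's size factors. Leaving out any 1 library gave 3 to 5 called members there and 3 to 7 in wildtype, with 3 in wildtype when replicate 2 of d2.5 was left out. Mrps27, an RNA-binding protein of the small subunit, fell in both: it was at 86.6, 82.2 and 83.4 CPM at d2.5 and 62.8, 53.9 and 63.1 CPM at d3 in wildtype, and at 86.8, 69.5 and 82.7 CPM and then 69.4, 61.6 and 51.0 CPM in Nr6a1-/- cells. The groups did not overlap in either genotype. Its log2 fold changes were -0.49 ± 0.12 (edgeR adjusted p = 0.00673) and -0.40 ± 0.12 (edgeR adjusted p = 0.0187). Mrpl15 fell in both as well, by 0.33 and 0.31 on the log2 scale. Mrps7, at -0.38, and Mrpl12, at -0.36, were called in wildtype. Mrpl51, at -0.35, was called in Nr6a1-/- cells.

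Mrps6 and Mrps21, the members called higher at this step in wildtype, were called in Nr6a1-/- cells as well, though with adjusted p close to the threshold. Mrps6, a small-subunit protein, went from 51.6 ± 1.28 to 71.0 ± 8.80 CPM in wildtype and from 52.9 ± 5.80 to 69.7 ± 6.85 CPM in Nr6a1-/- cells (SD, n = 3; log2 fold changes 0.46 ± 0.15 and 0.40 ± 0.14). Mrps21 went from 93.2 ± 3.41 to 125 ± 6.44 CPM and from 106 ± 6.67 to 129 ± 14.6 CPM (0.42 ± 0.10 and 0.28 ± 0.10). The edgeR adjusted p was 0.0396 and 0.0488 for Mrps6, whose call was lost under 7 of 13 alternatives in each genotype. It was 0.00524 and 0.047 for Mrps21, whose call held under all 13 in wildtype and was lost under 9 of 13 in Nr6a1-/- cells. Mrpl52 rose by 0.29 on the log2 scale in Nr6a1-/- cells. At the same step 13 of 20 genes of the mitochondrial and integrated stress responses were lower in wildtype (median -0.39). Without Nr6a1, 3 were lower and 3 higher.

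From d3 to d4 the genotypes gave different counts. In wildtype 10 members were higher and 1 lower, with 9.79% and 11.3% of all genes, or 6 higher and 2 lower with no scaling factors. The risers were led by Mrps22, at 77.6, 85.9 and 78.2 CPM at d3 and 109, 106 and 117 CPM at d4, without overlap (log2 fold change 0.46 ± 0.14, edgeR adjusted p = 0.0146). Mrpl20 followed at 0.43, from 278 ± 1.31 to 375 ± 14.8 CPM, and then Mrpl32 at 0.40. Mrpl45, which anchors the ribosome to the inner membrane, was the one that fell, from 207 ± 7.66 to 158 ± 6.29 CPM (log2 fold change -0.39 ± 0.09, edgeR adjusted p = 0.00112). Leaving out library 2 of wildtype d4 gave 10 higher and 1 lower, and leaving out replicate 1 or 3 of d3 or replicate 1 of d4 gave 4 higher and 1 lower.

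Without Nr6a1, 5 members were higher and 13 lower from d3 to d4, with 13.6% and 12.3% of all genes. The split was 2 higher and 13 lower with DESeq2's size factors and 1 higher and 23 lower with no factors. It was 3 and 3 without replicate 3 of Nr6a1-/- d4 and 4 and 20 without replicate 1, 2 and 9 without replicate 2 of d4 or of d3, and 3 and 7 without replicate 1 of d3. The largest falls were in Mrps2 at -0.54, Mrpl16 at -0.46 and Mrps23 at -0.42, and the largest rises in Mrps30 at 0.43, Mrpl37 at 0.38 and Mrpl50 at 0.31. Mrps30, a large-subunit protein, was at 94.5, 104 and 91.2 CPM at d3 and at 126, 138 and 127 CPM at d4, and its call held under all 13 alternatives, while those of Mrpl37 and Mrpl50 were lost under 11 and 9 of 13. The 1 member lower in wildtype, Mrpl45, was not among the 13 lower in Nr6a1-/- cells, where at most 1 could have been shared. Of the 10 higher in wildtype and the 5 higher in Nr6a1-/- cells, Mrps12 was the one in both.

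Between genotypes, few members were called at d2, d2.5, d3 and d4G, as were few of all genes tested. At d2, 0 members were called by edgeR in either direction, with 11 at an unadjusted p under 0.05, where 1.35% of all genes were higher and 2.72% lower. DESeq2 called 0 as well. At d2.5, 1 member was higher and 0 lower, with 2.86% and 3.59% of all genes. That member was Mrpl21, a large-subunit protein at 212, 207 and 198 CPM in wildtype and 262, 225 and 246 CPM in Nr6a1-/- libraries (log2 fold change 0.25 ± 0.08, edgeR adjusted p = 0.0465), and the call was lost under 9 of 13 alternatives. The median log2 fold change was 0.08 at d2 and 0.05 at d2.5.

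At d3, 4 members were higher in Nr6a1-/- cells and 0 lower, with 4.49% and 6.29% of all genes, and 58 of 75 values were positive, with a median of 0.10. All 4 were Mrpl, as are 48 of the 75 members. Mrpl12, which forms the stalk that recruits translation factors, was at 188, 177 and 170 CPM in wildtype and at 240, 251 and 203 CPM in Nr6a1-/- cells (log2 fold change 0.38 ± 0.09, edgeR adjusted p = 0.00409). It was the one of the 4 whose call held under all 13 alternatives. Without replicate 1 of Nr6a1-/- d3 it was the only member called, and without replicate 1 of wildtype d3, 2 were called. Mrpl20, a large-subunit protein, was at 279, 278 and 277 CPM and at 395, 359 and 328 CPM (0.37 ± 0.09, edgeR adjusted p = 0.00548). Mrpl55 and Mrpl33 followed at 0.31 ± 0.09 and 0.30 ± 0.08. Stress response genes were higher at this stage in 6 of 20 cases, led by Chac1 at 1.61 ± 0.33, and Mycn was at 44.5 ± 3.13 and 78.8 ± 7.88 CPM (SD, n = 3).

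At d4, 15 members were lower in Nr6a1-/- cells and 3 higher, with 9.17% and 9.72% of all genes. The median was -0.07 over the members and 0.02 over all genes. The members with the largest falls were Mrps2, the small-subunit protein at 48.0, 55.4 and 54.8 CPM in wildtype and 46.4, 30.3 and 33.8 CPM in Nr6a1-/- libraries (log2 fold change -0.52 ± 0.16, edgeR adjusted p = 0.0214), Mrps23 at -0.45 ± 0.11 and Mrpl15 at -0.43 ± 0.09. Mrpl15 was at 478, 484 and 505 CPM in wildtype and at 421, 370 and 300 CPM in Nr6a1-/- libraries. Its groups did not overlap and its call held under all 13 alternatives. Mrpl20 was lower as well, at -0.36 ± 0.09. The other lower members were Mrpl32, Mrpl49, Mrpl9, Mrpl16, Mrps35, Mrpl14, Mrpl40, Mrps17, Mrpl36, Mrps28 and Mrpl58, the last a peptidyl-tRNA hydrolase that frees stalled chains.

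This count depended on which Nr6a1-/- d4 libraries were used. It was 22 lower and 2 higher without replicate 1 and 1 lower and 5 higher without replicate 3. With only the 6 libraries of the comparison 2 were lower and 0 higher. Of the cytosolic ribosomal protein genes, 23 of 78 were lower and 0 higher. Over the 3 libraries in order the members summed to 11051, 10192 and 9323 CPM on the TMM scale and to 10050, 10090 and 9316 CPM before it, and the cytosolic genes to the TMM-scaled values given above and to 166808, 128710 and 121261 CPM before it. Replicate 3 was lowest in all 4 series, while replicate 2 was high for the members before scaling and low for the cytosolic genes on both scales. Replicate 1 shares its index with a d4G library, and replicates 2 and 3 share theirs with d3 libraries. The part of pools in these values was not tested. All 6 mesoderm markers tested were higher and all 5 endoderm markers lower in Nr6a1-/- cells at this stage, and their part in the members' values was not tested. Without replicate 2 of Nr6a1-/- d4, 7 members were lower and 0 higher. Without library 2 of wildtype d4, 9 were lower and 2 higher, and without library 1 or 3, 8 or 7 were lower and 1 higher.

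The 3 members higher at d4 were Mrps30, Mrpl34 and Mrpl33. Mrps30 was at 108, 102 and 103 CPM in wildtype and at 126, 138 and 127 CPM in Nr6a1-/- libraries, without overlap (log2 fold change 0.32 ± 0.09, edgeR adjusted p = 0.00719). Its call was lost with only the libraries compared, without the filter and without replicate 2 of Nr6a1-/- d4. Among the lists around the mitochondrial ribosome, Grsf1 was higher, at 1.38 ± 0.11, and oxidative phosphorylation genes were higher in 12 and lower in 5 of 78 cases. Myc was lower in Nr6a1-/- cells, at -0.87 ± 0.21, and Mycn higher, at 0.90 ± 0.12.

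At d4G, 3 members were higher and 0 lower in Nr6a1-/- cells, with 3.28% and 4.63% of all genes. Mrps23 was at 48.0, 50.4 and 46.0 CPM in wildtype and at 67.3, 63.9 and 65.2 CPM in Nr6a1-/- libraries (log2 fold change 0.44 ± 0.12, edgeR adjusted p = 0.012), and the groups did not overlap. Mrpl4 was at 0.32 ± 0.10 and Mrpl33 at 0.31 ± 0.09. The call of Mrpl4 was lost under 9 of 13 alternatives. Without replicate 1 of Nr6a1-/- d4G 0 members were called by edgeR, and without replicate 2 or 3 of wildtype d4G 1 was.

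Over the 5 stages, Mrpl33, a small protein of the large subunit, was the member called most often between genotypes, higher in Nr6a1-/- cells at d3, d4 and d4G. It was at 189, 196 and 221 CPM in wildtype and 268, 255 and 224 CPM in Nr6a1-/- libraries at d3, at 225, 241 and 220 CPM and 278, 283 and 247 CPM at d4, and at 189, 187 and 168 CPM and 224, 231 and 218 CPM at d4G. The groups did not overlap at any of these 3 stages, with log2 fold changes of 0.30 ± 0.08, 0.23 ± 0.08 and 0.31 ± 0.09 (edgeR adjusted p = 0.0162, 0.0417 and 0.0178). The call was lost under 4, 11 and 6 of 13 alternatives at d3, d4 and d4G. Mrpl33 is also the one member, of the 67 with a promoter window, that holds both an NRF1 and an ETS motif, as shown above. A link between these motifs and its levels was not tested.

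Mrpl20 and Mrps23 were called in opposite directions at different stages. Mrpl20 was higher in Nr6a1-/- cells at d3 and lower at d4, where it was at 391, 374 and 361 CPM in wildtype and 338, 295 and 245 CPM in Nr6a1-/- libraries. Mrps23 was lower at d4 and higher at d4G. Both calls at d4 were lost without replicate 3 of Nr6a1-/- d4. Whether the genotype difference changed between d2 and d4 was tested as an interaction, which was called downwards for 7 members (Mrps2, Mrps23, Mrps17, Mrpl20, Mrpl58, Mrpl27 and Mrpl15) and upwards for 1 (Mrps30), against 4.48% and 4.72% of all genes. The calls of Mrps2, Mrps30 and Mrps17 were lost under 11, 5 and 2 of 19 alternatives. Mrps23 had a log2 difference of -0.67 ± 0.16 (edgeR adjusted p = 0.00419), from 61.8 ± 3.72 CPM (wildtype) and 72.2 ± 0.87 CPM (Nr6a1-/-) at d2 to 68.3 ± 1.58 and 50.1 ± 11.5 CPM at d4 (SD, n = 3). Without replicate 3 of Nr6a1-/- d4, 2 were called in each direction, and without replicate 1, 16 downwards and 1 upwards. Leaving out any wildtype d2 library gave 5 in all.

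**Figure D5:**
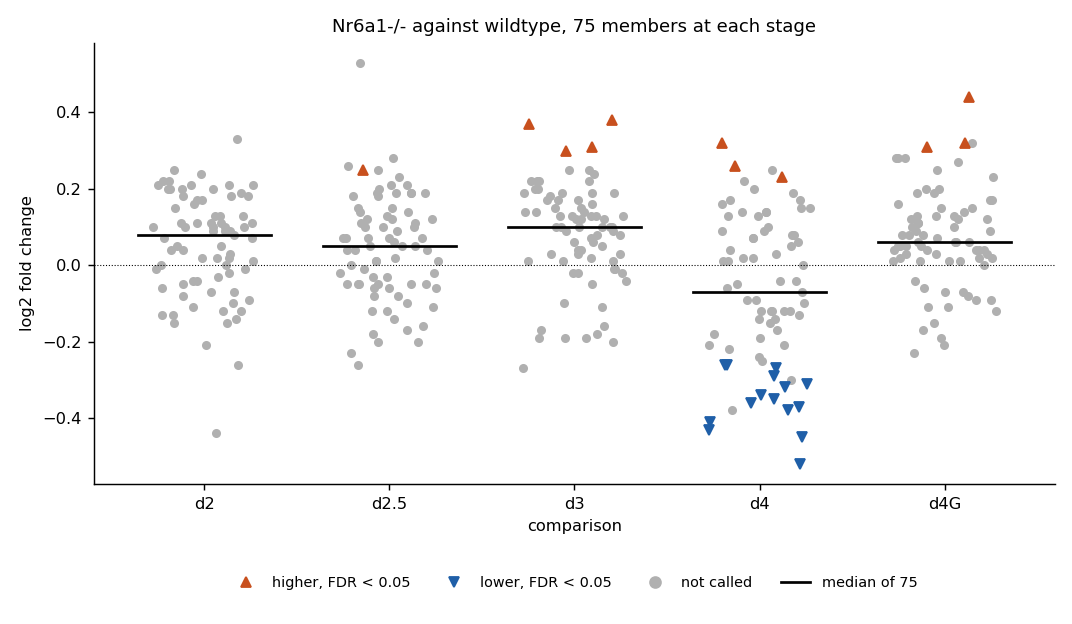
Log2 fold change of the 75 members (points) in Nr6a1-/- against wildtype cells at each stage, with the median as a bar and called members as triangles. The medians lie at 0.08, 0.05, 0.10, -0.07 and 0.06 from d2 to d4G, and d4 is the stage with called members below 0, 15 in number.

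The 2 members on chromosome 8 were looked at separately, as that chromosome took a smaller share of counts in Nr6a1-/- libraries. Mrpl34 (GRCm38, chromosome 8, 71464959 to 71465747, plus strand) had log2 fold changes of -0.02, -0.08, 0.17, 0.26 and 0.01 from d2 to d4G, and the value at d4 was called (SE 0.09, edgeR adjusted p = 0.0272), a call lost under 7 of 13 alternatives, DESeq2 among them. At d4 it was at 140, 149 and 133 CPM in wildtype and 171, 174 and 163 CPM in Nr6a1-/- libraries. Mrps31 (chromosome 8, 22411361 to 22429665, plus strand), a small-subunit protein, had values of -0.08, -0.20, -0.27, -0.38 and -0.06, none of them called. The summed level of the 73 members on other chromosomes lay at 10048 to 10456 CPM in wildtype and 10687 to 11211 CPM in Nr6a1-/- libraries at d2, and at 10090 to 10209 and 9116 to 9885 CPM at d4, before TMM scaling.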

How the data were processed

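The 30 libraries were primed on poly(A) tails, so reads mark transcript 3′ ends, and the primers carried molecular identifiers. Per the labels and the study's methods, the authors aligned reads with STAR to mm10 and used edgeR; the counter, annotation, use of strand and collapsing of identifiers are not given in the sources used here. The deposited table holds whole-number counts per gene. Tables deposited per stage hold the authors' own counts, CPM, log2 fold changes and p-values of genes with FDR under 0.05 and were not used.

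The members and gene lists were chosen with earlier results of these data known. A gene was tested if, within any 1 group, at least 2 libraries held over 10 counts and over 2 CPM of it (12149; 41985 rows dropped; 99.16% to 99.37% of counts kept). Counts were scaled by TMM and fitted in 1 model of 10 groups with edgeR 4.0.16 in R 4.3.3 (quasi-likelihood test, Benjamini-Hochberg over all genes, threshold 0.05, 20 residual degrees of freedom). SE is the log2 fold change over the square root of F. Members named were, per comparison, all called where 6 or fewer, otherwise the 3 largest rises and 3 largest falls; members called the same way at 3 or more of 5 stages or in opposite directions; the 4 highest and lowest by level, those beside the limit and those on chromosome 8; and up to 3 called genes of other lists with Polrmt, Tfam, Tufm, Dap3, Myc and Mycn. Other members are named where they complete a list, chosen after their values were seen. The fit was tested on simulated data. Replicates differed by a chi-square per gene of 1.46 to 7 over 30 pairs. A count of 0 allows 3 counts, 0.813 to 1.91 CPM, which covers counting error only. Coordinates are from GENCODE M21 (GRCm38), matched for 97.89% of rows, and promoter windows from RefSeq (1 window per symbol; the window ends of 64 of 67 members were found in GENCODE transcripts). Alternatives were other scaling factors (DESeq2's size factors, none), DESeq2 1.42.0, no filter, only the libraries compared, counts thinned to 1570714 per library, the replicate number as a block, each library left out and, added after seeing the data, d3 as the reference of d4G.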

Additional observations from a re-analysis of the deposited data

Results flagged for a closer look

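Changes that differed between wildtype and Nr6a1-/- cells were found in 12 interaction tests of members, by edgeR at an adjusted p under 0.05. The response to Gdf11 (d4G against d4, Nr6a1-/- minus wildtype) differed for Mrps23 by 0.90 ± 0.16 on the log2 scale (SE), for Mrpl36 by 0.52 ± 0.14, for Mrps17 by 0.48 ± 0.13 and for Mrpl15 by 0.44 ± 0.12. The change from d2 to d4 differed for Mrps2 by -0.69 ± 0.22, for Mrps23 by -0.67 ± 0.16, for Mrps17 by -0.50 ± 0.13, for Mrpl20 by -0.48 ± 0.13, for Mrpl58 by -0.46 ± 0.12, for Mrpl27 by -0.44 ± 0.14, for Mrpl15 by -0.43 ± 0.12 and for Mrps30 by 0.45 ± 0.12. Of 19 alternatives, the d2 to d4 calls of Mrps2, Mrps30, Mrps17 and Mrps23 were lost under 11, 5, 2 and 0. Those of Mrpl20, Mrpl58, Mrpl27 and Mrpl15 were not followed through the alternatives, and Mrpl27 was close to the threshold (edgeR adjusted p = 0.0497). In the Gdf11 test the calls of Mrpl36, Mrps17 and Mrpl15 were lost under 11, 13 and 13. Both tests use the 3 Nr6a1-/- d4 libraries, which differed among themselves, and Mrps23, Mrps17 and Mrpl15 stand in both with opposite signs. The part of those libraries in the differences was not tested beyond leaving each out, under which Mrps23 was called in both tests.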

How the results depend on the processing

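In wildtype d4G against d4 the count of called members was 36 to 40 with each library left out. The same ranges were 0 to 0, 0 to 1, 1 to 6, 6 to 24 and 0 to 4 between genotypes from d2 to d4G, 7 to 12, 3 to 7 and 5 to 11 for the earlier wildtype steps, 2 to 10, 3 to 5, 6 to 24 and 10 to 29 for the Nr6a1-/- steps, and 4 to 17 and 1 to 10 for the interactions from d2 to d4 and with Gdf11. With no scaling factors 1 member was called between genotypes at d2, 0 at d2.5 and 7 at d3, 14 in Nr6a1-/- d2.5 against d2, 11 in Nr6a1-/- d4G against d4 and 16 in the d2 to d4 interaction. With no filter on low counts 0 were called between genotypes at d2.5, 8 at d4 and 0 at d4G, 6 and 5 in the wildtype steps to d2.5 and d3, 2, 4, 9 and 12 in the 4 Nr6a1-/- steps, and 1 in the Gdf11 interaction. With thinned counts 0 were called between genotypes at d2.5 and 1 at d4G, 6 in the wildtype step to d2.5, 7 in that to d4, and 4 and 3 in the Nr6a1-/- steps to d2.5 and d3. With only the libraries compared 0 were called between genotypes at d2.5 and 2 at d4, 14, 4 and 7 in the Nr6a1-/- steps to d2.5, d4 and d4G, 5 in the d2 to d4 interaction and 1 in the Gdf11 interaction. DESeq2 called 5 in the Nr6a1-/- step to d3. With d3 as the reference of d4G, chosen after seeing the data, 35 were called in Nr6a1-/- cells and 0 in the interaction. After TMM scaling the mean summed levels of wildtype d2, d2.5, d4 and d4G were 10877.3, 10442.9, 10581.2 and 8438.4 CPM. The cause of these moves was not tested. No call picked by the naming rule above changed sign under these alternatives, and other calls given in the text were not checked for this. The order of the wildtype d2, d2.5 and d4 sums turned with TMM scaling. With no scaling factors the members' median from d2 to d2.5 turned from -0.02 to 0.06 in wildtype and from -0.03 to 0.02 in Nr6a1-/- cells. Within a stage, replicate numbers did not pair the libraries. In 15 pairs of the same stage and number the deviations correlated at -0.352 to 0.227, with 4 over 0.1, and 9 of 30 libraries correlated best with their own number. Between stages, pairs of the same number had a median of 0.049, with 43 of 120 over 0.1. Pairs of different numbers had a median of -0.023, with 46 of 240 over 0.1. Whether libraries of the same number shared a source between stages was not tested. With the replicate block the counts were 0, 1, 4, 18 and 3 between genotypes, 21, 10, 12 and 46 in wildtype, 12, 10, 21 and 19 in Nr6a1-/- cells, and 10 and 6 for the interactions. A count of 0 allowed up to 1.91 CPM in the shallowest library, and differences below the spread of 3 libraries were not detectable at this depth.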
